A study of Homo sapiens with 6 samples.

Results

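The genes described here are 9 members of the pathway that carries insulin and insulin-like growth factor signals into the cell. They are the receptor genes INSR and IGF1R, the adaptor genes IRS1 and IRS2, the phosphoinositide 3-kinase (PI3K) catalytic subunit genes PIK3CA and PIK3CB, the PI3K regulatory subunit genes PIK3R1 and PIK3R3, and the lipid phosphatase gene INPP4B. They were chosen by gene symbol, and all 9 were found among the 26364 symbols of the count files. The cells were ZR-75-30, an established human breast adenocarcinoma line of epithelial type. One group of 3 libraries came from cells infected with the control lentivirus (pLVX), and the other group of 3 came from cells infected with the CDK12 lentivirus (pLVX-CDK12). Both groups therefore carried a lentiviral vector, and the labels name no uninfected cells. Replicates are called biological, but nothing says whether they were separate infections. The p-values weigh the group difference against the variation within these groups of 3 and 3 libraries. They may therefore not cover variation between separate infections. ZR-75-30 is known for its amplified ERBB2. The study is known for work on CDK12 and IRS1-ErbB-PI3K signalling, so these genes are not an independent choice.

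When a ligand binds, INSR or IGF1R phosphorylates IRS1 or IRS2, large docking proteins with many tyrosine sites. The regulatory subunits of PI3K bind those sites through their SH2 domains and bring the catalytic subunit to the membrane, where it makes the lipid PIP3 that recruits and activates AKT. INPP4B and other phosphatases remove phosphates from this class of lipids and so oppose the route. In breast cancer the route is known for frequent mutation of PIK3CA and for its part in resistance to drugs against ERBB2. CDK12, the transduced gene, encodes a kinase of RNA polymerase II that acts during transcript elongation.

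Library totals ran from 21178163 to 26543653 counts. CDK12 had 1705 to 1798 raw counts in the control libraries and 50957 to 54381 in the CDK12 libraries, so each library matched its label. All 10 luminal epithelial markers examined, among them KRT8, EPCAM and GATA3, exceeded 1 CPM (the count scaled to a fixed library total), with a summed level of 15698 to 16408 CPM in controls and 14954 to 15418 CPM with CDK12. Of 6 fibroblast markers only COL1A1 reached 1 CPM, and the list summed to 45.8 to 50.7 CPM in controls and 61 to 72.3 CPM with CDK12. Of 5 leukocyte markers PTPRC and CD68 reached 1 CPM, with sums of 4.6 to 5.62 and 2.16 to 2.92 CPM, and of 4 endothelial markers VWF did, with sums of 2.41 to 3.24 and 1.58 to 2.2 CPM. Of 5 myoepithelial markers 3 reached it, with sums of 10.2 to 10.4 and 10.4 to 11.3 CPM. No marker of these lists was at 0 in all libraries, and the part of the fibroblast, leukocyte and endothelial sums in the results was not tested. In bulk RNA, fewer cells with a transcript and less of it per cell cannot be told apart.

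In the cells given CDK12 the transcripts of both IRS adaptors were higher and those of both PI3K regulatory subunits and of INPP4B were lower. The 2 receptors and the 2 catalytic subunits did not pass the test (0 of 4 by edgeR, also at an unadjusted p under 0.05, by DESeq2 and by limma-voom). The largest proportional difference was that of IRS1, 1.83-fold, but on 35 against 71 reads in all. INPP4B fell by 27.7% on 1653 to 2290 reads a library, PIK3R1 fell by 12.7% and PIK3R3 fell by 9.92%, while IRS2 rose by 16.3%. By edgeR's quasi-likelihood test with Benjamini-Hochberg adjustment over all 14665 genes tested (threshold 0.05), 5 of the 9 genes were called. Among all genes tested 35.1% were called, 16.2% higher and 18.9% lower, and the members' 2 higher and 3 lower stand beside that. The groups' libraries did not overlap for the same 5 genes, against 45.6% of all genes tested. The median log2 fold change was -0.021 over the 9 genes and 0.003 over all genes tested. IRS1 passed the low-count filter, which asks for 0.42 CPM in 3 libraries, through its CDK12 libraries: only 2 control libraries exceeded that level, so its passing the filter already depended on the group in which it was high.

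**Figure D1:**
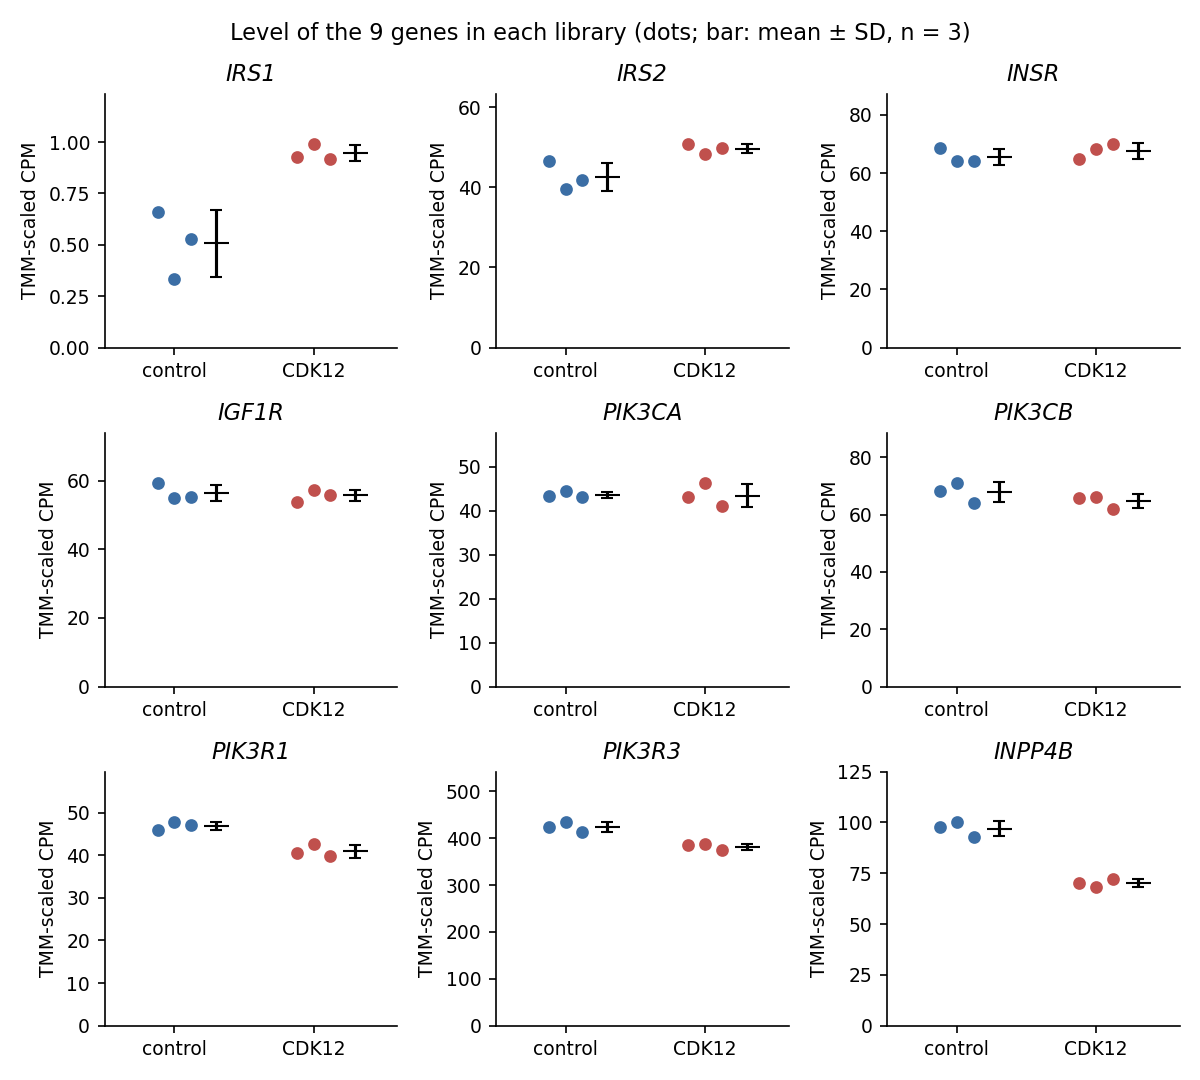
TMM-scaled CPM (counts scaled to a common library total with the factors of the trimmed mean of M-values) of the 9 genes, each panel with its own axis from 0, with 1 dot per library and a bar for the mean ± SD of 3 libraries. The control and CDK12 dots do not overlap for IRS1, IRS2, PIK3R1, PIK3R3 and INPP4B, and they overlap for the other 4 genes.

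**Figure D2:**
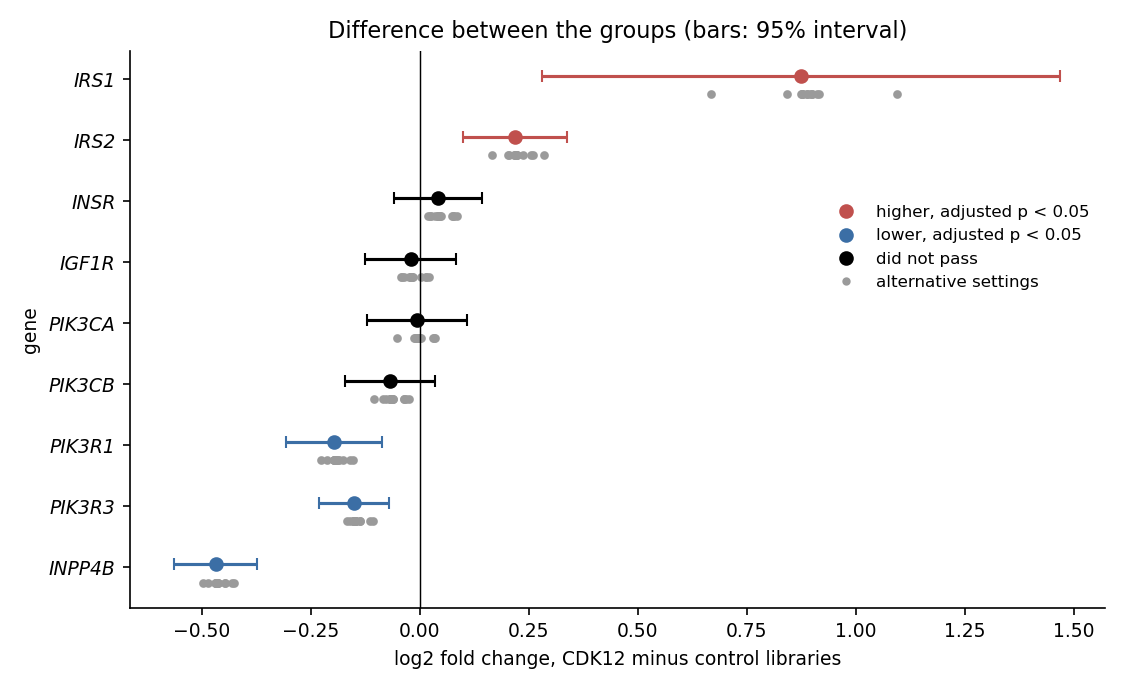
Log2 fold change of each gene, CDK12 minus control libraries, with its 95% interval (edgeR quasi-likelihood test), coloured by the call; small grey dots are the values under other scalings, filters, tests and with single libraries left out. The interval of IRS1 runs from 0.28 to 1.47 and is far wider than those of the other genes, and the grey dots of IGF1R and PIK3CA lie on both sides of 0.

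IRS1, the docking protein first described for insulin signalling, was close to the limit of detection in these cells. Raw counts were 15, 7 and 13 in control replicates 1, 2 and 3 and 25, 24 and 22 in CDK12 replicates 1, 2 and 3. Every CDK12 library thus held more IRS1 reads than every control library, and control replicate 2 was the lowest. The exact 95% Poisson interval, which covers counting error only, was 8.4 to 24.7 reads for the highest control and 13.8 to 33.3 reads for the lowest CDK12 library, so the intervals of single libraries overlapped. A count of 0 would allow up to 3 reads, so IRS1 was above that floor in every library.

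After scaling, IRS1 was at 0.659, 0.336 and 0.528 CPM in the controls and at 0.929, 0.989 and 0.917 CPM with CDK12. The means were 0.507 ± 0.163 and 0.945 ± 0.0382 CPM (SD, n = 3 per group). The difference was 0.88 on the log2 scale with an SE of 0.29, and the adjusted p from edgeR was 0.0199. This is a 1.83-fold difference with a 95% interval of 1.21 to 2.77. An exact permutation test (two-sided) of the 6 CPM values had p = 0.1, which is as low as 3 against 3 libraries can go. The controls varied by 32% of their mean, where counting error alone gives 29.3%, and the CDK12 libraries by 4.05%, where counting error alone gives 20.6%. Among the 1413 tested genes with a mean under 1 CPM, 21.1% were called and 11.3% were called higher, against 36.6% called among genes at 1 CPM or more. The call was lost with the DESeq2 Wald test (adjusted p = 0.146), without control replicate 2 (log2 fold change 0.67, edgeR adjusted p = 0.104), without control replicate 3 (adjusted p = 0.0513) and without CDK12 replicate 2 (adjusted p = 0.055). Over all alternatives for IRS1 the log2 fold change ran from 0.67 to 1.09 and the adjusted p from 0.0146 to 0.146.

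**Figure D3:**
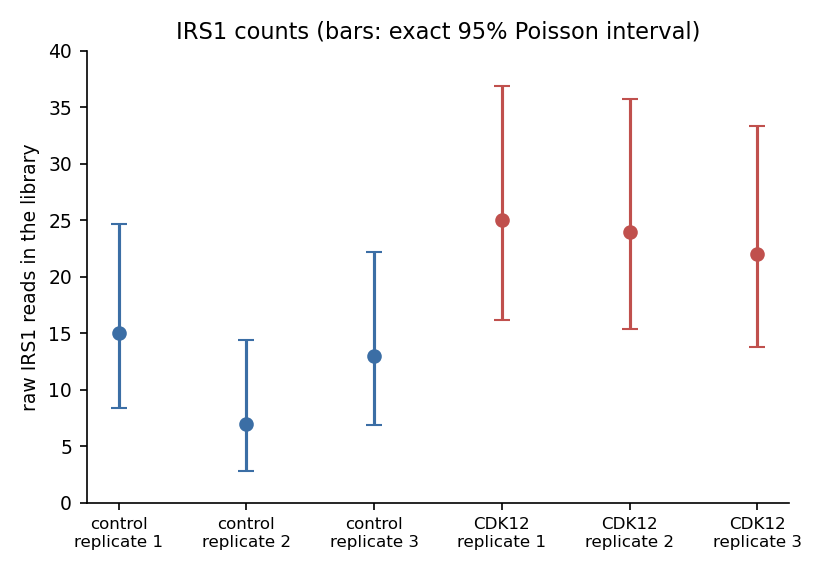
Raw IRS1 reads in each of the 6 libraries, with the exact 95% Poisson interval of each count. The controls lie at 7 to 15 reads and the CDK12 libraries at 22 to 25 reads, and the intervals of control replicates 1 and 3 overlap those of all CDK12 libraries.

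IRS2, the second widely expressed adaptor of the family, carried most of the IRS reads. It was at 46.5, 39.6 and 41.8 CPM in the controls and at 50.7, 48.4 and 49.8 CPM with CDK12, without overlap, and control replicate 1 was the nearest to the CDK12 group. The mean rose from 42.6 ± 3.55 to 49.6 ± 1.2 CPM (a log2 difference of 0.22 with SE 0.06, edgeR adjusted p = 0.00419), a gain of 16.3% with a 95% interval of 7.18% to 26.3%. IRS2 was called under each of the 15 alternatives that test against no change, with adjusted p from 0.000878 to 0.0408. Per kilobase of exon, IRS2 exceeded IRS1 by 84.2, 141 and 94.5 times in the controls and by 65.1, 58.3 and 64.7 times in the CDK12 libraries. The ratio was lower in each CDK12 library, but it rests on 7 to 25 IRS1 reads per library. The highest ratio, 141, came from control replicate 2 with 7 IRS1 reads. IRS4, the remaining adaptor of this family counted here, had 0 to 3 reads in each library and was not tested.

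The start regions of these adaptor genes are shown because both transcripts rose. Each is the 250 bases before the RefSeq transcript start (GRCh38.p14), 5′ to 3′ on the gene's strand, with matches to the GC box GGGCGG and the CCAAT box CCAAT, on either strand, in capitals. IRS1 lies on the minus strand of chromosome 2 (chr2:226799821-226800070) and IRS2 on the minus strand of chromosome 13 (chr13:109786584-109786833).
IRS1: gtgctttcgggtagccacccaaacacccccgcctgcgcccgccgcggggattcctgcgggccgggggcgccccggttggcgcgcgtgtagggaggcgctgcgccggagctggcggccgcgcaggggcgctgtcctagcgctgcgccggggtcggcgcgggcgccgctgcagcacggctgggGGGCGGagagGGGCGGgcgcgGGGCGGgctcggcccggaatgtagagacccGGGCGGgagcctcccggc
IRS2: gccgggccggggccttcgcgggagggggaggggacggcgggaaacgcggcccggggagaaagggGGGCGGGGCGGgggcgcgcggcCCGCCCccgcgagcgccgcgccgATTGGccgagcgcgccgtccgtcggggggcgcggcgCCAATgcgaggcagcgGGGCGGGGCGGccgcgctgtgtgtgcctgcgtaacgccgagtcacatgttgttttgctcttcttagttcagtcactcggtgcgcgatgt
Both windows are rich in G and C, 80.8% for IRS1 and 76.4% for IRS2 against a median of 58% over 35116 windows of the same length. The GC box, the site known for SP1, has 4 matches in IRS1 and 5 in IRS2, of which some share a base, and 42.6% of all windows hold at least 1. INSR and IGF1R, whose transcripts did not pass the test, have 4 and 2 such matches in windows of 78.4% and 81.2% G and C, and PIK3CA, also uncalled, has 1 in a window of 57.6%. The CCAAT box has 2 matches in IRS2 and 0 in IRS1, and is in 32% of all windows. The letters of the E-box (CACGTG, 6.34% of windows), the cAMP response element (TGACGTCA, 1.65%), the FOXO element (GTAAACA, 2.98%) and the TATA box (TATAAA, 10.7%) are in neither window on either strand. All 9 genes matched the RefSeq table, and 5 of them have a single listed start, while PIK3CB has 2, PIK3R1 has 4 and PIK3R3 and INPP4B have 6 each. No window is shown for those 4 genes, since gene counts do not tell which start was used.

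The receptor transcripts did not pass the test. INSR, the insulin receptor, was at 68.8, 64.2 and 64 CPM in the controls and 64.7, 68.3 and 69.9 CPM with CDK12, and the groups overlapped. Its log2 fold change was 0.04 (95% interval -0.06 to 0.14; edgeR adjusted p = 0.538). IGF1R, the receptor of insulin-like growth factors, was at 59.2, 54.9 and 55.2 CPM in the controls and 53.9, 57.2 and 55.9 CPM with CDK12, again overlapping. Its log2 fold change was -0.021 (95% interval -0.13 to 0.08; adjusted p = 0.776 by the same test), and its sign turned with upper-quartile factors (0.015) and with total counts (0.021). In percent, the interval ran from -4.02% to 10.5% for INSR and from -8.36% to 5.93% for IGF1R. Per kilobase, INSR exceeded IGF1R by 1.56, 1.57 and 1.56 times in the controls and by 1.62, 1.61 and 1.68 times with CDK12. Gene counts do not part the splice forms of INSR.

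The catalytic subunits did not pass either. PIK3CA, which encodes the alpha form and is often mutated in breast cancer, was at 43.4, 44.4 and 43.1 CPM in the controls and 43.1, 46.2 and 41 CPM with CDK12. The CDK12 values lay on both sides of the controls, with a log2 fold change of -0.007 (95% interval -0.12 to 0.11; edgeR adjusted p = 0.939) whose sign turned with upper-quartile factors (0.030) and total counts (0.035). In GENCODE 29 its exons share 3403 bases with those of KCNMB3 on the opposite strand, and a transcript of AP000547.1 is 97.5% identical to it over 488 bases. A transcript of KCNMB3P1 is 98.2% identical to its opposite strand over 2715 bases. The counting's strand setting is not given in the sources used here, so some PIK3CA reads may belong to these genes. KCNMB3 itself was at 12.1 ± 0.585 and 13.3 ± 0.818 CPM (adjusted p = 0.224, edgeR). PIK3CB, the beta form, was at 68.4, 70.9 and 64 CPM in the controls and 65.7, 66.3 and 61.8 CPM with CDK12, with overlap. Its log2 fold change was -0.07 (95% interval -0.17 to 0.04; adjusted p = 0.316, edgeR). In percent, the interval ran from -11.2% to 2.52%.

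Both regulatory subunit genes fell. PIK3R1 encodes the main SH2 adaptor of PI3K in most tissues and also shorter forms from inner starts. It was at 45.9, 47.7 and 47.1 CPM in the controls and 40.4, 42.7 and 39.8 CPM with CDK12, and each CDK12 library was below each control. The mean fell from 46.9 ± 0.919 to 40.9 ± 1.53 CPM (a log2 difference of -0.20 with SE 0.05, edgeR adjusted p = 0.0055), a change of -12.7% with a 95% interval of -19.1% to -5.8%.

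PIK3R3, which encodes a shorter regulatory subunit, was by far the most abundant transcript of the 9. It was at 425, 434 and 413 CPM in the controls and 385, 387 and 375 CPM with CDK12, without overlap. The mean fell from 424 ± 10.6 to 382 ± 6.5 CPM (a log2 difference of -0.15 with SE 0.04, edgeR adjusted p = 0.00378), a change of -9.92%. By mean CPM it ranked 331 among the tested genes, and 97.7% of them were below it. In GENCODE 29 it shares 1292 exon bases with the same-strand gene AL358075.4, whose transcript is a near copy there and which is no row of the tested table. PIK3R1 and PIK3R3 were called under each of the same 15 alternatives, with adjusted p of at most 0.0281 and 0.0311. PIK3R2, the third regulatory gene of this class, was at 89.6 ± 2.64 and 84.0 ± 4.23 CPM and did not pass (log2 fold change -0.09, adjusted p = 0.127, edgeR). Per kilobase, PIK3R3 made up 71.7% ± 0.93 of the 3 regulatory transcripts in controls and 71.2% ± 1.07 with CDK12, and PIK3R1 made up 6.08% ± 0.127 and 5.85% ± 0.193 (SD, n = 3 per group).

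INPP4B had the largest fall of the 9 genes and the smallest p. This phosphatase removes the 4-phosphate from PI(3,4)P2 and is known as a tumour suppressor that is often lost in basal-like breast cancer. It was at 97.8, 100 and 92.9 CPM in the controls and 70.4, 68.1 and 71.9 CPM with CDK12, and the lowest control was 1.29 times the highest CDK12 library. The mean fell from 97.0 ± 3.76 to 70.1 ± 1.91 CPM (a log2 difference of -0.47 with SE 0.05, edgeR adjusted p = 8e-09), a change of -27.7% with a 95% interval of -32.3% to -22.8%. A fall as large or larger was seen for 633 tested genes, 4.32% of them. INPP4B was called under each of the same 15 alternatives, with log2 fold changes from -0.50 to -0.43, and it was the only one of the 9 genes to pass a test against a fold of 1.2 (edgeR glmTreat, adjusted p = 0.000474). Its relative INPP4A, which acts on the same lipid, was at 33.3 and 32.0 CPM and did not pass (log2 fold change -0.06, adjusted p = 0.471, edgeR).

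Levels of different genes were compared per kilobase of merged exons in GENCODE 29 on GRCh38, while the counts rest on hg19 and an annotation that is not given, so these levels are approximate. In the controls PIK3R3 stood at 71.3 ± 1.78 CPM per kilobase, PIK3R2 at 22 ± 0.649, PIK3CB at 11.3 ± 0.585 and INPP4B at 8.18 ± 0.317. INSR (7.22 ± 0.299), PIK3R1 (6.05 ± 0.119), IRS2 (5.24 ± 0.436), PIK3CA (4.76 ± 0.0731) and IGF1R (4.61 ± 0.196) followed on the same scale. PIK3CD, the PI3K catalytic gene of leukocytes, was at 0.206 ± 0.0373 and IRS1 at 0.0523 ± 0.0168 CPM per kilobase. Neighbours in this order did not overlap between libraries except PIK3CA and IGF1R. In the CDK12 libraries INPP4B came after INSR (7.44 ± 0.29) and overlapped IRS2: INPP4B was at 5.91 ± 0.161 and IRS2 at 6.1 ± 0.147 CPM per kilobase. The place of INPP4B after INSR depends on the exon lengths used. In CPM not divided by length, INPP4B kept the higher mean with CDK12, 70.1 against 67.6 CPM. IRS2 also passed PIK3R1, which was above it in the controls and below it with CDK12 (5.28 ± 0.198 CPM per kilobase), in both groups without overlap. IRS1 was still the lowest, at 0.0974 ± 0.00394.

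**Figure D4:**
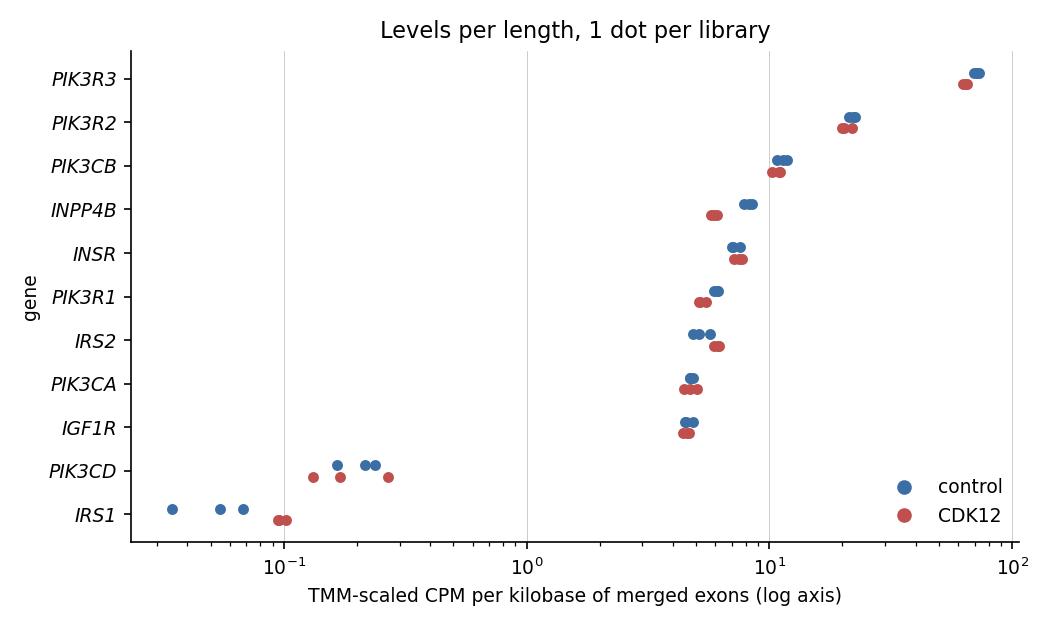
TMM-scaled CPM per kilobase of merged exons on a log axis for the 9 genes and the PI3K subunit genes PIK3R2 and PIK3CD, with 1 dot per library. PIK3R3 lies at 63 to 73 in all libraries and IRS1 at 0.0346 to 0.102, the CDK12 dots of INPP4B lie below those of INSR, and the CDK12 dots of IRS2 lie above those of PIK3R1, both the reverse of the controls. The order of INPP4B and INSR with CDK12 depends on the exon lengths used.

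The other genes of the route were taken from 7 lists with 84 genes. These lists were written with earlier results of these data known, so their shares of called genes are descriptions. Of the listed genes 72 could be tested. Of these 72 genes 11 were higher and 13 lower in the CDK12 libraries, 33.3% against the 35.1% of all genes tested, with a median log2 fold change of -0.012. With upper-quartile factors the split was 16 higher and 10 lower, and with total counts 16 and 9, so the balance turned with the scaling. Without control replicate 3 the lower genes numbered 8. Ligand transcripts were nearly absent: INS had 0 reads in every library, IGF1 had 1 to 5 and IGF2 had 0 to 4, and none was tested. A count of 0 allows up to 0.113 to 0.142 CPM in these libraries.

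Of 6 tested binding proteins of insulin-like growth factors and their partner IGFALS, 3 were higher and 1 was lower, 50% and 16.7% beside 16.2% and 18.9% of all genes tested. The higher genes numbered 2 with the DESeq2 Wald test and in 5 of the 6 fits that leave out 1 library. IGFBP4 rose from 98.5 ± 2.49 to 119 ± 2.66 CPM (log2 fold change 0.27, edgeR adjusted p = 1.64e-05) and IGFALS from 1.33 ± 0.151 to 2.22 ± 0.537 CPM (0.74, adjusted p = 0.00565, and 0.0525 with the DESeq2 Wald test). IGFBP5, the most abundant of them at 7579 ± 86 and 8173 ± 328 CPM, was also called (0.11, adjusted p = 0.0406), but of the 6 fits that leave out 1 library it kept the call only without CDK12 replicate 1, and the others had adjusted p of 0.0708 to 0.205. IGFBP2 fell from 76.0 to 64.2 CPM (-0.245, adjusted p = 0.000617). The receptor relative IGF2R, which clears IGF2, was at 251 and 236 CPM and did not pass (adjusted p = 0.14).

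Among 12 tested adaptors and receptor regulators, 3 were lower by edgeR, 25% beside the 18.9% of all genes tested, and 1 was lower without control replicate 3. None was higher (0 also at an unadjusted p under 0.05, with DESeq2 and with limma-voom). GRB14, an inhibitor of the insulin receptor, fell from 0.713 to 0.333 CPM (log2 fold change -1.10, edgeR adjusted p = 0.0129) on few reads. Its 3 control libraries met the low-count filter and its CDK12 libraries would not have met it by themselves (0.615, 0.672 and 0.852 CPM, against 0.335, 0.247 and 0.417 CPM with CDK12), so its testing already depended on the group in which it was high. It was not called with the DESeq2 Wald test (0.12) or without control replicate 3 (0.0839) or CDK12 replicate 2 (0.0635). The phosphatase PTPN11, which docks on IRS and GAB proteins, fell from 295 to 266 CPM (-0.15, adjusted p = 0.00636). PTPN1, the phosphatase that turns off INSR, fell from 78.0 to 70.8 CPM (-0.14, adjusted p = 0.0161). Its call was lost with upper-quartile factors (log2 fold change -0.10, adjusted p = 0.0728) and total counts (-0.098, 0.0879), and without control replicate 1 (-0.14, 0.0595) or control replicate 3 (-0.14, 0.0542). Of 7 other tested genes of PI3K subunits and their partners, 1 was lower, 14.3% beside the same 18.9%, and 0 higher (1 at an unadjusted p under 0.05 by edgeR, 0 with DESeq2 and limma-voom). Scaling by upper quartiles or by totals gave 1 higher. PIK3C2B, a class II kinase, fell from 75.3 to 65.1 CPM (-0.21, adjusted p = 0.00133). Of 11 phosphatases of phosphoinositides and AKT, INPP5J and INPP5D, which remove the 5-phosphate, were higher, 18.2% beside 16.2% of all genes tested, and 0 were lower by edgeR, also at an unadjusted p under 0.05, with DESeq2 and with limma-voom. INPP5J rose from 68.4 ± 1.78 to 84.4 ± 4.4 CPM (0.30, adjusted p = 1.97e-05). INPP5D went from 2.99 ± 0.308 to 4.02 ± 0.31 CPM (0.42, adjusted p = 0.0198, and 0.123 with the DESeq2 Wald test; not called when control replicate 1, control replicate 2 or CDK12 replicate 3 was left out, 0.0954, 0.0546 and 0.0759).

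The AKT and mTOR arm had 8 of 21 genes lower and 0 higher, with a median log2 fold change of -0.106. This is 38.1% lower against 18.9% of all genes tested, a description only, since the list was written with earlier results known. At an unadjusted p under 0.05 edgeR had 1 higher and 10 lower, and DESeq2 and limma-voom had 0 higher with 6 and 8 lower. With upper-quartile factors 6 were lower and 1 higher, and with total counts 5 and 1. Without control replicate 1 or control replicate 3, 5 were lower. AKT1 fell from 443 to 399 CPM (-0.15, adjusted p = 0.00737, and 0.0535 without control replicate 3). AKT2 fell from 190 to 172 CPM (-0.15, adjusted p = 0.00927), and was not called with total counts (0.0595), without control replicate 1 (0.066) or without CDK12 replicate 2 (0.0588). DEPTOR, an inhibitor of mTOR, fell from 465 to 397 CPM (-0.23, adjusted p = 4.78e-05), and GSK3A, a kinase that AKT inhibits, from 133 to 112 CPM (-0.24, adjusted p = 0.000145).

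FOXO factors, which AKT keeps out of the nucleus, and a set of their textbook targets had 6 of 14 genes higher and 0 lower. That is 42.9% higher against 16.2% of all genes tested, with a median log2 fold change of 0.114. The list was written with earlier results of these data known, so this share is a description and not a test. At an unadjusted p under 0.05 edgeR had 7 higher and 0 lower, and DESeq2 and limma-voom had 0 lower as well. TXNIP, an inhibitor of glucose uptake, was at 430, 438 and 429 CPM in the controls and 564, 566 and 571 CPM with CDK12 (log2 fold change 0.39, edgeR adjusted p = 5.68e-09), without overlap. CCNG2, an atypical cyclin of resting cells, rose from 201 to 242 CPM (0.27, adjusted p = 1.55e-05), and the death gene BCL2L11 from 43.3 to 52.6 CPM (0.28, adjusted p = 0.000104). Of the FOXO genes themselves, FOXO4 was called higher (22.8 to 26.3 CPM, log2 fold change 0.205, edgeR adjusted p = 0.0187). That call was lost with the DESeq2 Wald test (adjusted p = 0.0642). It was also lost by edgeR without control replicate 3 (0.13) or CDK12 replicate 2 (0.0952). FOXO1 and FOXO3 did not pass (edgeR adjusted p = 0.536 and 0.963). The list had 9 higher and 0 lower with upper-quartile factors or total counts, and 4 higher with the DESeq2 Wald test or without CDK12 replicate 2. IRS2 and INSR, which are also known FOXO targets, were counted among the 9 genes and not here.

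**Figure D5:**
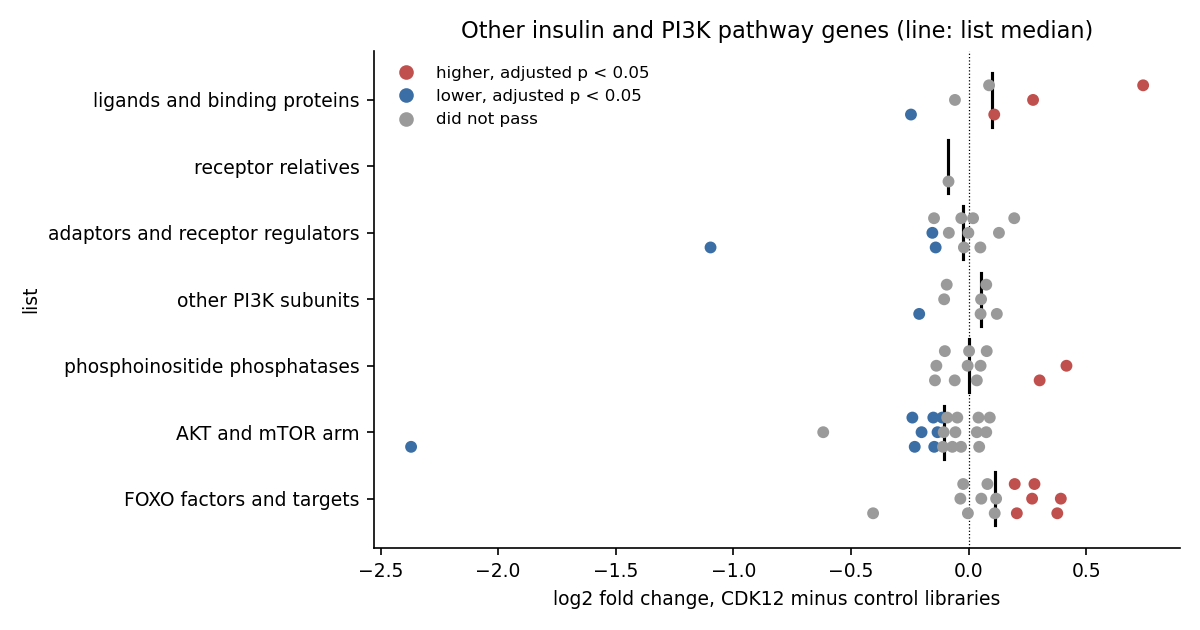
Log2 fold change, CDK12 minus control libraries, of the 72 tested genes of the 7 pathway lists, with 1 dot per gene, spread vertically for legibility, coloured by the call, and a line at each list's median. The called genes of the AKT and mTOR list all lie below 0, and the called genes of the FOXO list all lie above 0.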

How the data were processed

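Each library has 1 deposited file of raw, unnormalized counts by gene symbol. Poly(A) RNA was captured and a strand-marking kit was used, per the labels' protocols. CASAVA 1.8, STAR 2.6.0c, featureCounts from Subread 1.6.2 and the build hg19 are named in the submitters' processing notes, without settings. The members and lists were chosen with earlier results of these data known. Genes were filtered with filterByExpr of edgeR 4.0.16 (minimum count 10, minimum total 15), scaled by TMM and tested with edgeR's quasi-likelihood F test, group as the only term, two-sided, Benjamini-Hochberg adjusted over 14665 genes. The SE is the log2 fold change divided by the square root of F. The test was checked on simulated counts. Named were all 9 genes, CDK12, PIK3R2, AKT1, AKT2 and, per pathway list, up to 3 called genes in each direction by smallest p; values of some other list genes are not reported here, though the list counts include them. Other genes named (PIK3CD, INPP4A, IGF2R, FOXO1, FOXO3, FOXO4, KCNMB3, marker genes and pathway-list genes too low to test) were added for context after their values were seen. Alternatives were DESeq2 1.42.0 size factors, upper-quartile factors, total counts, 2 other filters, the DESeq2 Wald test, limma-voom (limma 3.58.1), a replicate block, CDK12 left out, a test against 1.2-fold, and each library left out. Replicates of a group differed by more than sampling noise. Gene structures and transcript copies (at least 95% identity over 200 bases) came from GENCODE 29, and start regions from RefSeq.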

Additional observations from a re-analysis of the deposited data

How the results depend on the processing

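The calls of IRS2, PIK3R1, PIK3R3 and INPP4B held under every alternative run against no change, and INSR and PIK3CB stayed uncalled with their sign. IRS1 passed with the other scalings, without a filter, with limma-voom, with the replicate block and with CDK12 left out. It could not be fitted under the filter of 1 CPM in 3 libraries, which removes it. With the DESeq2 Wald test its log2 fold change was 0.89 (adjusted p = 0.146), and with single libraries left out 0.67 to 1.09 (edgeR adjusted p = 0.0182 to 0.104). The number of the 9 genes called higher was 2, but 1 with the 1 CPM filter, 1 with the DESeq2 Wald test, 0 against a fold of 1.2 (glmTreat, 1 at an unadjusted p under 0.05), and 1 to 2 with single libraries left out. The number called lower was 3, and 1 against a fold of 1.2. IGF1R, never called, changed sign with upper-quartile factors (0.015), total counts (0.021), without control replicate 1 (0.014) and without CDK12 replicate 1 (0.004), and ran from -0.043 to 0.014 with single libraries left out. PIK3CA, never called, did so with upper-quartile factors (0.030), total counts (0.035), and without control replicate 2 (0.002), CDK12 replicate 1 (0.001) or CDK12 replicate 3 (0.032), and ran from -0.052 to 0.032 with single libraries left out. Pathway genes called higher were 11, 7 with the DESeq2 Wald test and 1 (TXNIP) against a fold of 1.2, and 8 to 13 with single libraries left out. Those called lower were 13, 1 against a fold of 1.2, and 8 to 15 with single libraries left out, where 8 was without control replicate 3. The causes were not tested.

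Same-numbered libraries correlated in their deviations from the group means by -0.215, 0.24 and 0.148, and differently numbered ones by -0.323 to 0.163. The deviations are taken around means of 3 libraries, so these values cannot decide whether the numbers pair the libraries. The labels state no pairing. With the replicate block IRS1 had a log2 fold change of 0.88 (adjusted p = 0.0351), 2 members were higher and 3 lower, and 10 pathway genes were higher and 14 lower. Depth limits IRS1 above all, with 7 to 25 reads per library.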

Other observations

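The genomic span of a gene, from GENCODE 29, was not used to choose the 9 genes. INPP4B covers 824 kb, IGF1R 316 kb, PIK3CB and INSR 182 kb each, PIK3R3 92.9 kb, PIK3CA 92 kb, PIK3R1 86.1 kb, IRS1 68.4 kb and IRS2 33.9 kb. IRS2, which rose, has the shortest span of the 9 and INPP4B, with the largest fall, has the longest. The second shortest is that of IRS1, whose call rested on few reads and was lost under 4 alternatives. The order is not kept in between: PIK3R1 and PIK3R3 fell, while the longer INSR, PIK3CB and IGF1R did not pass. Among 12857 tested protein-coding genes with a span, 73 are at least as long as INPP4B, itself included, and 40 of these (54.8%) were lower, with a median log2 fold change of -0.349. Of the 487 genes at least as long as IGF1R, which include those 73, 37.2% were lower and 6.16% higher. Genes at least as long as IRS1 were 28.9% of the 12857, and 20.9% of them were lower and 14.2% higher. For IRS2 these shares were 49.3%, 19.3% and 15.9%, so its span is short only among the 9. Over all genes tested, 18.9% were lower and 16.2% higher. IGF1R itself did not pass the test. These counts were taken after the values were seen and are a description, and the part of span in the result of INPP4B was not tested.

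Pattern likeness was measured as Pearson's r of log2 CPM over the 6 libraries. These fall into 2 groups, so genes called in the same direction tend to score high. Nearest to IRS1 were ACVR2B (0.9987), RASD2 (0.9934) and LOC100129924 (0.9914), with 143 genes above 0.95. Nearest to IRS2 were ZNF48 (0.9983), GP6 (0.9975) and JADE2 (0.9945), with 102 genes above 0.95. Nearest to INPP4B were MIR503HG (0.9982), CAMKK2 (0.997) and BPGM (0.9962), with 660 above 0.95. Within the 9 genes r was 0.961 between IRS1 and IRS2, 0.945 between PIK3R1 and PIK3R3, and 0.956 between PIK3R3 and INPP4B.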
